A study of Rattus norvegicus with 42 samples.

Results

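GH4C1 cells that lack the long non-coding RNA Neat1 were compared with wild-type GH4C1 cells 30 h after a change to fresh medium. GH4C1 cells are a rat pituitary line, established in culture, of the lineage that makes growth hormone and prolactin. The comparison used 6 of the 42 RNA sequencing libraries of the series: the 3 wild-type libraries (WT) and the 3 Neat1-/- libraries (KO) that the labels place at 30 h (T30; ZT30 in the sample labels). The series sampled both genotypes at 4 h intervals, the first at 10 h (T10) and the last at 34 h (T34), with 3 libraries per genotype and time, to ask how the loss of Neat1 affects rhythmic gene expression. The labels give CRISPR-Cas9 as the treatment of KO cells and no treatment for WT cells. They do not say how many KO clones were used, so an effect of the deletion and a difference between clones cannot be told apart. They also do not say whether the 3 libraries of a group came from separate cultures. The p-values measure the spread between these libraries, which may be technical. Counts of WT and KO were deposited apart, and a difference in preparation or processing between them cannot be told apart from genotype either. All cells were grown in medium with horse and fetal calf serum, and the medium change was used to synchronise them.

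Neat1 stays in the nucleus and is the scaffold of paraspeckles, bodies that form on nascent Neat1 transcripts. RNA-binding proteins such as Nono, Sfpq and Pspc1 gather there, and some messenger RNAs are held in these bodies and so kept from the cytoplasm. In cultured pituitary cells, paraspeckles have been described as varying with time of day. Counts of total RNA give the level of a transcript in the whole culture and do not show where in the cell it is. Fewer cells with a transcript and less of it per cell cannot be told apart in such data.

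Genes are given by the Ensembl identifiers of the deposited tables. The tables and the reference used here do not pair these identifiers with symbols, so 0 of 13776 genes could be named. Neat1, the paraspeckle proteins, the clock genes and the markers of pituitary cells were therefore not analysed here, and neither the genotype nor the cell type was checked against its marker genes. Genes are described below in groups, by the direction and size of their difference, by their level and by their behaviour in single libraries. The 4 genes printed were picked by size of change and level among genes whose WT and KO values did not overlap.

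The total count of the libraries was 55540942, 50583140 and 37928249 in WT replicates 1, 2 and 3 and 46439892, 54931581 and 46870423 in KO replicates 1, 2 and 3. A pair of genes, ENSRNOG00000043866 and ENSRNOG00000030478, took 18.7% to 20.2% of all counts in KO libraries, against 0.0384% to 0.304% in WT libraries. They were left out when library sizes were computed, and a level in CPM is relative to the total count of all other genes after TMM scaling. No libraries of a group agreed within sampling noise, with a chi-square per degree of freedom of 12.1 to 54.3 in the 6 pairs of replicates. Of the T30 libraries, KO replicate 1 stood apart from its replicates in the most genes, and WT replicate 3 in the pair of genes above and few others. KO replicate 1 differed by more than 2-fold from replicates 2 and 3 in 357 and 305 genes, against 199 genes between replicates 2 and 3. Its levels lay nearer to those of KO cells at T26 than the other KO libraries at T30 did, as described below. It was kept at T30 as labelled, whether its label or harvest time is right was not tested, and KO values at T30 carry that doubt. WT replicate 3 held 0.304% of its counts in the pair of genes above, against 0.0384% and 0.0392% in WT replicates 1 and 2. Results are given with these libraries, and without them where they moved the value.

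KO and WT cells differed at T30 in most of the genes measured, usually by a small amount. By edgeR, 10121 of 13765 genes tested (73.5%) were called at an adjusted p under 0.05, of which 5103 (37.1% of those tested) were higher and 5018 (36.5%) lower in KO. The median absolute log2 fold change was 0.53 over all genes, and 4006 of the called genes (39.6%) differed by less than 1.5-fold. WT and KO values did not overlap for 10633 genes (77.2%), and 653 of these were not called. The spread between replicates was smaller than the typical difference, with a median SD of log2 CPM of 0.0788 in WT and 0.119 in KO (n = 3 each).

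Larger differences leaned towards higher levels in KO. A called difference of at least 2-fold was found for 1968 genes higher in KO (14.3% of genes tested) and 1101 genes lower in KO (8.0%). At 4-fold or more the numbers were 405 and 165, at 8-fold or more 72 and 49, and at 16-fold or more 27 and 20. The genes at least 2-fold higher in KO were at low to moderate level, with a median of 7.39 CPM in WT and 22.6 CPM in KO. Those at least 2-fold lower went from a median of 16.7 CPM in WT to 6.30 CPM in KO. The median level over all genes tested was 27.9 CPM. With the pair of abundant genes set aside, the 1966 remaining higher genes made up 4.69% to 5.12% of counts in the WT libraries and 14.3% to 15.0% in the KO libraries. The 1101 lower genes made up 9.96% to 10.4% in WT and 3.91% to 4.24% in KO. Median-of-ratios scaling gave 1964 genes at least 2-fold higher and 1103 lower, and library totals without the pair gave 2106 and 1013. TMM with the pair kept gave 1950 and 1116. Among the scalings tried, only library totals that include the pair reversed the lean, with 1305 genes higher and 2069 lower. The median of all log2 fold changes was then -0.26 against 0.0039. In that scaling 34.7% of the called genes were higher in KO, against 50.4%.

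**Figure D1:**
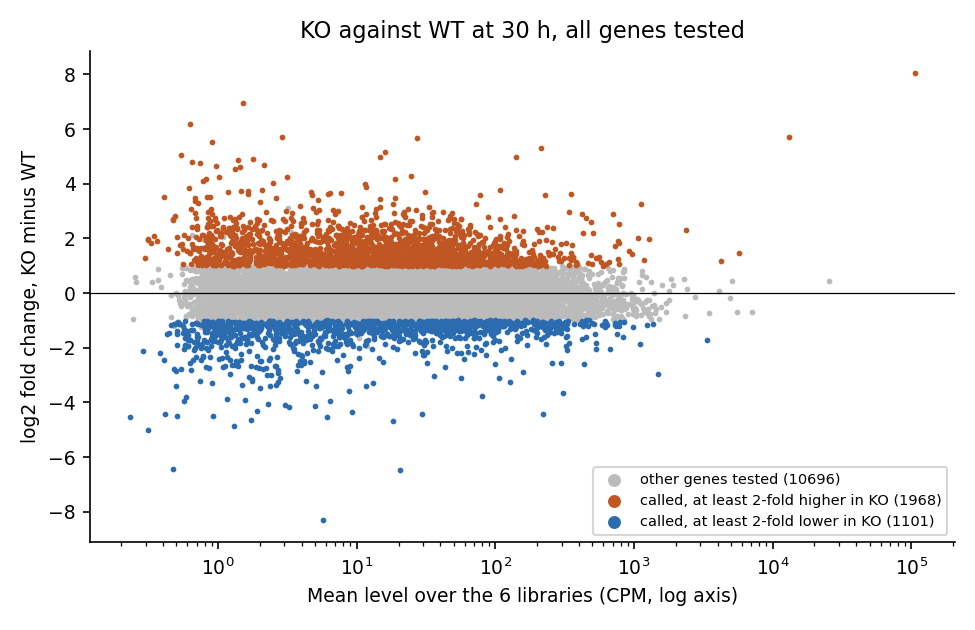
Log2 fold change of KO against WT at 30 h (y axis) against the mean level over the 6 libraries in CPM (x axis, log scale), with 1 point per gene tested. Of 13765 genes, the 1968 coloured above 0 and the 1101 coloured below 0 were called with at least a 2-fold difference, and they spread over the whole range of levels.

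The size and direction of the difference varied with the level of the gene. Among the 571 genes with a mean under 1 CPM, 24.9% were called and at least 2-fold higher in KO and 20.5% at least 2-fold lower. Among the 7314 genes at 10 to 100 CPM these shares were 13.4% and 5.55%. They were nearly even, at 7.9% and 7%, among the 2328 genes at 100 to 1000 CPM. In that class 1201 called genes were lower and 720 higher in KO, with a median log2 fold change of -0.19 over the class. The 66 genes at 1000 CPM or more had a median of -0.34, with 39 called lower and 21 called higher. Genes under 10 CPM had a median log2 fold change of 0.04 to 0.08. Abundant genes thus had lower levels in KO more often than higher ones, while differences of at least 2-fold under 100 CPM were more often increases in this scaling. The spread between replicates also fell with level, from a median SD of log2 CPM of 0.33 in WT and 0.38 in KO under 1 CPM to 0.050 and 0.079 at 100 to 1000 CPM. The share of genes called rose with level from 55.3% to 90.9%, and the part of precision in these shares was not tested.

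**Figure D2:**
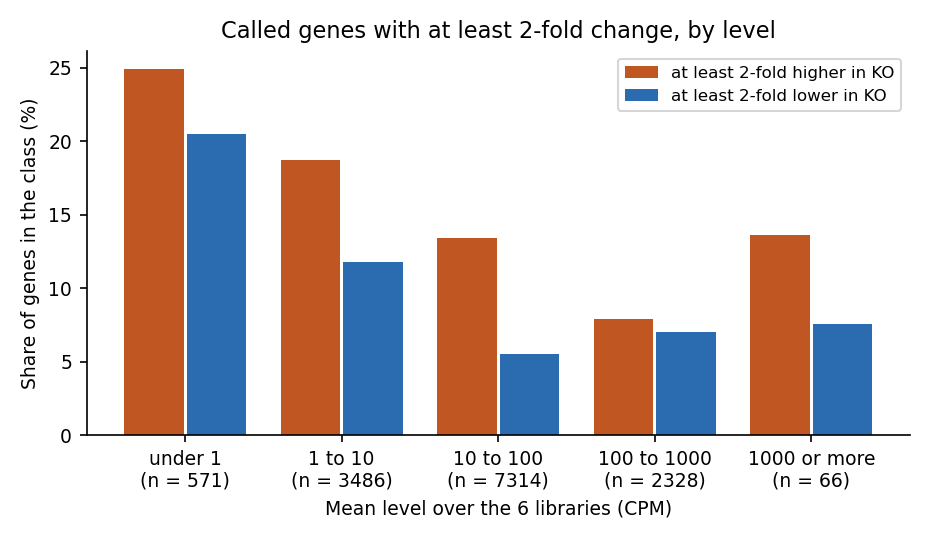
Share of genes (y axis, percent) that were called and at least 2-fold higher or lower in KO at 30 h, in classes of mean level over the 6 libraries in CPM (x axis, with the number of genes). The higher share exceeds the lower in all 5 classes and is nearest to it at 100 to 1000 CPM (7.9% against 7%). Over all classes, higher genes also outnumber lower ones with library totals that leave out the abundant pair (2106 against 1013). With totals that include the pair, lower genes outnumber higher ones (2069 against 1305).

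ENSRNOG00000043866 had the largest rise among the genes that could be picked. Its level was 305, 306 and 1809 CPM in WT replicates 1, 2 and 3 and 225785, 198380 and 216306 CPM in KO replicates 1, 2 and 3. The groups did not overlap, as the choice of genes required. The KO libraries were close to each other, and WT replicate 3 was 5.92 times as high as the mean of the other WT libraries. The log2 fold change was 8.05 (SE 0.83, adjusted p 3.15e-05 by edgeR), and 9.45 without WT replicate 3. This gene alone took 16.7% to 18% of all counts in the KO libraries.

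ENSRNOG00000030478 came next among the genes that could be picked and showed the same unevenness in WT. It was at 81.9, 95.4 and 1302 CPM in WT replicates 1, 2 and 3 and at 27615, 24938 and 24444 CPM in KO replicates 1, 2 and 3. WT replicate 3 was 14.7 times as high as the mean of WT replicates 1 and 2, and still far under every KO library. The log2 fold change was 5.70 (SE 1.10, adjusted p 0.00142 by edgeR), and 8.17 without WT replicate 3. The choice of WT library thus moved both fold changes by more than any KO library did. In the 15 WT libraries of T10 to T26 the levels were 253 to 542 CPM for ENSRNOG00000043866 and 49.97 to 302 CPM for ENSRNOG00000030478. At T30 WT replicate 3 lay above these ranges for both genes. So did 2 of the 3 WT libraries at T34: ENSRNOG00000043866 was at 2369, 749 and 443 CPM and ENSRNOG00000030478 at 785, 381 and 162 CPM in WT T34 replicates 1, 2 and 3. High levels of the pair in WT were thus not limited to 1 library, and WT T34 replicate 1 exceeded WT T30 replicate 3 for ENSRNOG00000043866.

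Other genes that were high in KO were looked up in WT replicate 3 as well. With the pair set aside, 7 genes were at least 16-fold higher in KO at a mean level of 10 CPM or more. WT replicate 3 was the highest WT library for 3 of the 7. Its ratio to the mean of WT replicates 1 and 2 had a median of 1.05 and a range of 0.732 to 2.23.

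ENSRNOG00000001571 had the largest fall among the genes that could be picked, which leaves out genes with a mean under 10 CPM. It was at 40.4, 42.2 and 39.9 CPM in WT replicates 1, 2 and 3, and at 0.297, 0.369 and 0.705 CPM in KO replicates 1, 2 and 3. The WT libraries were even, and the KO values rest on 11, 17 and 27 counts. The log2 fold change was -6.48 (SE 0.20, adjusted p 1.14e-07 by edgeR). ENSRNOG00000022178 followed among the genes that could be picked. It was at 33.8, 34.8 and 36.3 CPM in WT and 0.729, 1.61 and 1.72 CPM in KO, in the same order. KO replicate 1 was the lowest library for both genes. The log2 fold change of ENSRNOG00000022178 was -4.68 (SE 0.23, adjusted p 6.07e-07 by edgeR). Against the WT mean it was -5.58 in KO replicate 1 and -4.39 in the mean of KO replicates 2 and 3. For ENSRNOG00000001571 these values were -7.10 and -6.25.

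**Figure D3:**
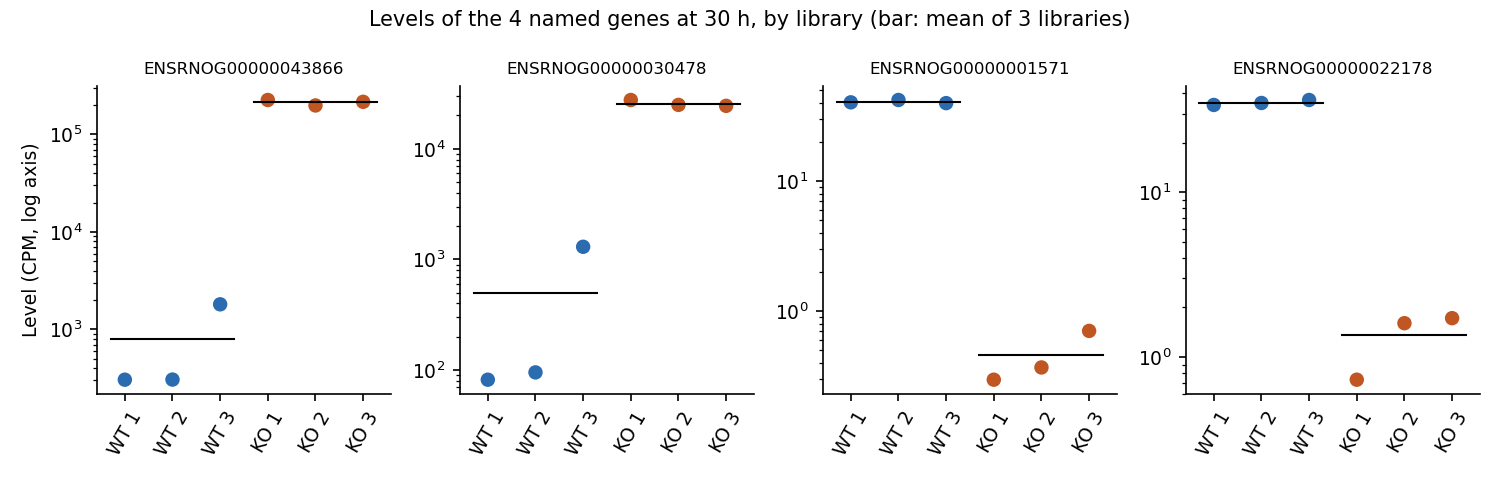
Level in CPM (y axes, log scale) of the 4 named genes in each of the 6 libraries at 30 h, with WT in blue, KO in orange and a bar at the mean of each group (n = 3). WT and KO do not overlap for any of the 4, which was a condition of their choice. WT replicate 3 lies above the other WT libraries for ENSRNOG00000043866 (1809 CPM) and ENSRNOG00000030478 (1302 CPM).

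The genes that followed in size under the same rule were less abundant than the pair at the top. The rule asked for called genes without overlap and with a mean level of 10 CPM or more. The next 10 higher genes had log2 fold changes of 3.75 to 5.66, with 0.506 to 16.5 CPM in the WT libraries and 20.4 to 451 CPM in the KO libraries. Their median level was 1.74 CPM in WT and 41.5 CPM in KO, where the median level over all genes tested was 27.9 CPM. The next 10 lower genes had log2 fold changes of -4.44 to -3.02, with 19.4 to 601 CPM in WT and 1.76 to 47.0 CPM in KO. Their median level was 125 CPM in WT and 11.3 CPM in KO. Of these 10 lower genes 6 were above 100 CPM in WT, and of the 10 higher genes 3 were above 100 CPM in KO. These levels are partly set by the minimum of 10 CPM in the rule. Called genes with larger changes that missed the rule were left out. Being called was part of the rule, and the largest adjusted p among these genes was 1.59e-06 by edgeR.

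The KO replicates were then taken apart, since replicate 1 differed from the other 2. Among the 9708 genes at a mean level of 10 CPM or more, KO replicate 1 was at least 1.5-fold above both other KO libraries in 102 genes and at least 1.5-fold below both in 96, counted where replicates 2 and 3 lay within 1.5-fold of each other. By the same rule the other T30 libraries stood apart in 7 to 21 genes each, both directions together. At 2-fold or more, KO replicate 1 was above in 11 genes and below in 13. These genes were chosen for the disagreement, and the counts describe it without a test.

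In the sets of genes where KO replicate 1 was apart, its median difference from WT had the opposite sign to that of replicates 2 and 3. These genes were chosen for a gap between the libraries, and opposite signs in single genes of the sets were not counted. For the 102 genes in which it was higher, the median log2 difference from the WT mean at T30 was 0.65 for replicate 1 and -0.22 for replicates 2 and 3. For the 96 genes in which it was lower, the medians were -0.35 and 0.61. With all 3 replicates, 64 of the 102 and 59 of the 96 were called for KO against WT, where 73.5% of all genes tested were. Over the whole table, KO replicates 2 and 3 lay outside the WT range on the same side in 11637 genes. KO replicate 1 did not lie on that side in 1004 of them (8.63%), and in 420 it lay beyond the WT range on the opposite side. When each of the other 5 libraries was taken as the odd one in this way, the share was 3.10% to 4.11%. Most such genes had small differences: in 39 of the 1004 the mean of replicates 2 and 3 was at least 2-fold from the WT mean.

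Levels of the same genes in KO cells 4 h before and after, which played no part in choosing them, placed KO replicate 1 near T26. In 95 of the 102 genes where it was higher, its level was nearer to the mean of KO T26 than to that of KO T34, and in 93 the mean of replicates 2 and 3 was nearer to KO T34. The median log2 level was 6.02 in KO replicate 1, 6.13 at KO T26, 5.21 in KO replicates 2 and 3 and 4.94 at KO T34. In the 96 genes where it was lower, 90 were nearer to KO T26 in replicate 1 and 91 nearer to KO T34 in replicates 2 and 3, and the median log2 levels were 4.2, 4.1, 5.01 and 5.14 in the same order. The pattern was not limited to genes chosen for the disagreement. Of the 868 genes of at least 10 CPM whose KO means at T26 and T34 differed by 1.5-fold or more, replicate 1 was nearer to KO T26 in 94.8%, replicate 2 in 10% and replicate 3 in 24.2%. Over all 9708 genes of at least 10 CPM, most of which differ less between KO T26 and T34, these shares were 75.1%, 31.5% and 37.5%. On a line through all genes from the mean of KO T26, at 0, to the mean of KO T34, at 1, KO T30 replicates 1, 2 and 3 lay at 0.20, 0.71 and 0.63. The KO libraries of T26 lay at -0.09 to 0.06 and those of T34 at 0.93 to 1.04.

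**Figure D4:**
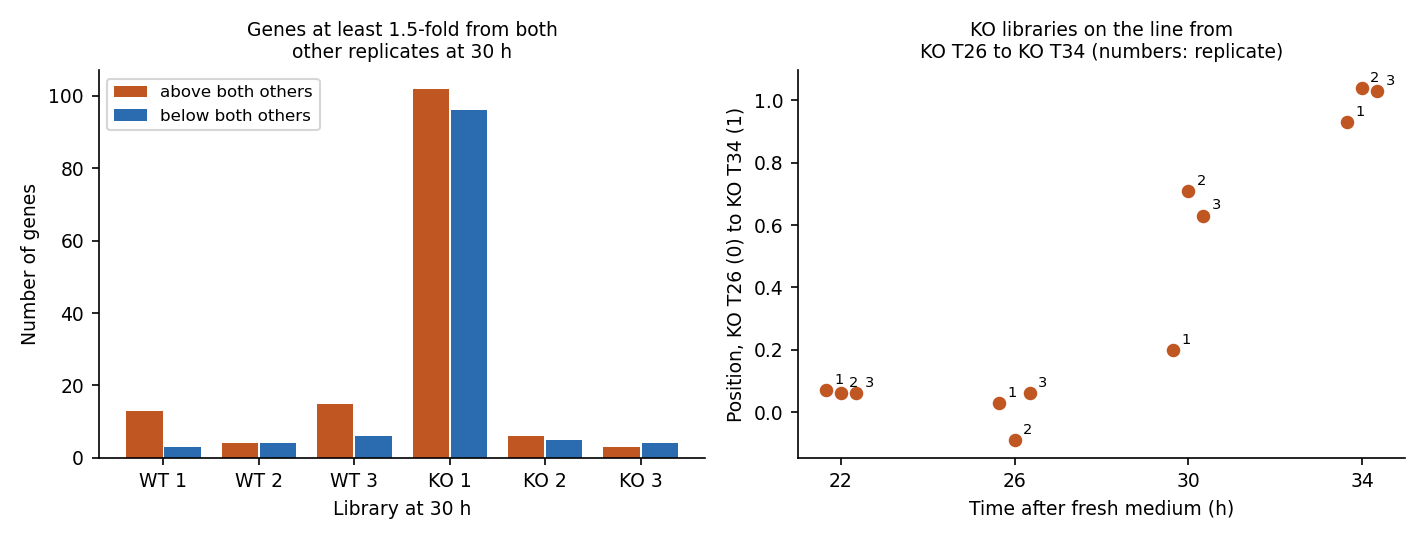
Left, the number of genes (y axis) in which each T30 library was at least 1.5-fold above or below both other replicates of its group. Right, the position of each KO library between the mean of KO T26 (0) and the mean of KO T34 (1) over all genes (y axis) against time in h (x axis, replicates drawn side by side). KO replicate 1 stands apart on the left with 102 and 96 genes, and on the right lies at 0.20, against 0.71 and 0.63 for replicates 2 and 3.

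WT replicates were closer to each other. The median absolute log2 difference between WT replicates 1 and 2 was 0.107, and WT replicate 3 was at 0.0889 and 0.0816 from them. WT replicate 3 stood apart in few genes. At 1.5-fold or more it was above both others in 15 genes and below both in 6. At 2-fold or more it was above in 7 genes, which included ENSRNOG00000043866 and ENSRNOG00000030478, and below in 4. Where WT replicates 1 and 2 lay outside the KO range on the same side, WT replicate 3 did not lie on that side in 3.49% of genes (384 of 11017, 47 of them beyond the KO range), within the 3.10% to 4.11% of the libraries other than KO replicate 1. Its depth was the lowest of the WT libraries, at 37928249 counts, and the part of depth in its differences was not tested. On the line from WT T26 to the mean of WT T34 replicates 2 and 3, the T30 libraries of WT lay together, at 0.31, 0.33 and 0.30. The WT libraries of T22 lay at 0.29, 0.23 and 0.20 on this line. The T30 positions therefore do not show a step from T26 towards T34. WT T34 replicate 1 was left out of this line, and lay at 2.21 on the line through all 3 WT T34 libraries. On that other line the T30 libraries of WT were at 0.19, 0.01 and 0.08.

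The overall calls were little affected by either library. Without KO replicate 1, edgeR called 10554 genes for KO against WT at T30, and without WT replicate 3 it called 9363. With KO replicate 1, 2 or 3 as the only KO library it called 9665, 9857 and 9674, where the spread of that library is assumed to be that of the WT libraries.

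The question of how far T30 differed from the rest of the series was put to a direct test. The difference of KO from WT at T30 was compared with the mean difference at the 5 earlier times, T10 to T26, in 1 fit of the 36 libraries of T10 to T30. By edgeR the difference was called for 5050 of 13774 genes (36.7%). The KO against WT test at T30 had called 3941 of them too, where it called 73.5% of all genes tested. Most of these shifts were small, with a median absolute log2 value of 0.34, and 221 were at least 2-fold. In 2632 of the 5050 genes (52.1%) the KO effect had the same sign and was larger at T30, in 1411 (27.9%) it was smaller, and in 1007 (19.9%) it had the opposite sign. Of the last group, 348 genes were called in opposite directions at T30 and over the earlier times. Of the 5050 genes 48.4% had a higher KO minus WT difference at T30, and this share was 60.7% with library totals that leave out the pair of abundant genes.

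Most genes with a large difference at T30 had one earlier too. Of the 1968 genes at least 2-fold higher in KO at T30, 1547 (78.6%) were also called and at least 2-fold higher over T10 to T26, where 13.1% of all genes tested met that rule. A further 385 were called higher by less than 2-fold, 26 were not called and 10 were called lower. Of the 1101 genes at least 2-fold lower in KO at T30, 656 (59.6%) met the rule at the earlier times, against 6.37% of all genes, and 418 were called lower by less than 2-fold. In that group 26 were not called and 1 was called higher. The median log2 fold change was 1.45 at T30 and 1.35 earlier for the higher genes, and -1.33 and -1.12 for the lower genes. The genes were picked at T30, so a larger value there was built into the choice.

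**Figure D5:**
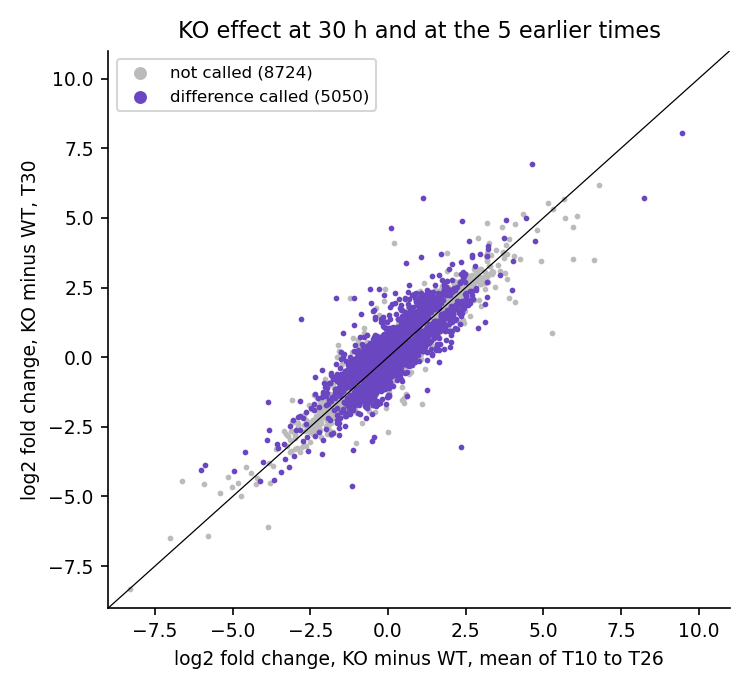
Log2 fold change of KO against WT at 30 h (y axis) against its mean over the 5 earlier times, T10 to T26 (x axis), with 1 point per gene and a line where both are equal. The 5050 genes whose difference was called lie on both sides of the line, and 8724 genes were not called.

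More of the movement was in KO than in WT. KO cells at T30 differed from KO cells at the earlier times in 5836 genes (42.4%), 2858 higher and 2978 lower at T30. WT cells differed in 2665 genes (19.3%), 1356 higher and 1309 lower, by edgeR in the same fit. The WT count was 1175 without WT replicate 2 and 1487 without WT replicate 3, and with library totals that leave out the pair 39.8% of the WT calls were higher at T30, against 50.9%. Among the 5050 genes above, the shift of KO was larger in size than that of WT in 73.0%, against 62.8% of all genes. Compared with T26 alone, edgeR called 3496 genes in KO (25.4%) and 0 in WT. In WT 1961 genes had an unadjusted p under 0.05, and DESeq2 called 136. The difference between the genotypes in this last step from T26 to T30 was itself called for 2028 genes (14.7%).

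The size of the KO shift differed between the KO libraries. With 1 KO library kept at T30, the difference from the earlier times was called by edgeR for 1864 genes with replicate 1, 4710 with replicate 2 and 4391 with replicate 3. The shift of KO itself was called for 972, 4805 and 4494 genes in the same order. In these fits the other groups supply the spread, and the 1 library is assumed to vary like them. With both KO replicates 2 and 3 the counts were 5791 and 6431. In the 500 genes whose KO minus WT difference was called and at least 1.5-fold higher at T30, the median log2 change from the earlier KO times was 0.31 in KO replicate 1, 0.71 in replicate 2 and 0.70 in replicate 3. The WT libraries had medians of -0.19, -0.24 and -0.22. In the 408 genes with a lower difference the medians were -0.31, -0.72 and -0.68 in KO and 0.17, 0.20 and 0.21 in WT. These 908 genes were chosen on the KO minus WT shift of the same libraries, so the opposite signs of KO and WT are set by the choice, and the medians are a description.

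Of the 4 named genes, 2 differed from the earlier times by this test and both results rested on WT replicate 3. For ENSRNOG00000043866 the KO minus WT log2 difference was 8.05 at T30 and 9.45 earlier, a change of -1.40 (SE 0.39, adjusted p 0.00567 by edgeR). Without WT replicate 3 it was 0.0025 (adjusted p 0.994). For ENSRNOG00000030478 it was 5.71 at T30 and 8.24 earlier, a difference of -2.53 (SE 0.64, edgeR adjusted p 0.00245). Without WT replicate 3 the change was -0.06 (adjusted p 0.925). The falling genes were not called, at 0.54 (SE 0.27, adjusted p 0.121) for ENSRNOG00000001571 and 0.35 (SE 0.18, adjusted p 0.126) for ENSRNOG00000022178. Without KO replicate 1 they were called, at 0.75 (adjusted p 0.0451) and 0.63 (adjusted p 0.000959 by edgeR), which are smaller falls in KO replicates 2 and 3 at T30 than earlier.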

How the data were processed

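Each genotype has its own table, in which the authors deposited whole, unnormalized read counts per gene. They were made with featureCounts, per the submitters' processing notes. Libraries were strand-specific and read in pairs, per the labels' protocols. The aligner, build, annotation, strand setting and gene filter are not given in the sources used here, so reads of overlapping genes or near-identical copies may be split in an unknown way. Tables were joined on the gene identifier. Library sizes left out ENSRNOG00000043866 and ENSRNOG00000030478, and TMM factors came from the other genes. Both genes were still tested. Genes passed filterByExpr of edgeR (at T30, 11 of 13776 were removed), and edgeR 4.0.16 in R 4.3.3 gave quasi-likelihood F tests, two-sided, with Benjamini-Hochberg adjustment over all genes tested and a threshold of 0.05. The SE was computed from the F statistic. KO against WT at T30 was fitted to the 6 libraries of that time, so that their own spread decided the calls. The test against the earlier times used a mean for each group in 36 libraries. Log2 CPM used a prior count of 1, and levels at other times came from scaling all 42 libraries together. Genes were named by rule: called genes without overlap and at a mean level of 10 CPM or more, ordered by log2 fold change and limited to 2 in each direction because no symbol was matched. The fixed gene lists and promoter motifs were not used for the same reason, and no sequence is printed. The libraries compared, the gene pair left out of the scaling, the lists and the tests were chosen with earlier results of these data known. On simulated counts with 200 genes changed by a log2 value of 1, the test at T30 recovered 85.0% of them with 11 false calls among 13761 genes, and the test against the earlier times 87.5% with 5 among 13774. That check changed 200 genes, whereas 73.5% of genes were called at T30 in the data. How either test performs with that many changed genes was not tested. Alternatives were other scalings and filters, DESeq2 1.42.0, a test against a minimum change of 1.5-fold, blocking on the replicate number, other sets of libraries and times, and leaving out each T30 library.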

Additional observations from a re-analysis of the deposited data

Results flagged for a closer look

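The difference between KO and WT at T30 departed from the mean of the 5 earlier times for 5050 genes by a direct test in edgeR (36.7% of genes tested). With 1 KO library kept at T30 the counts were 1864 genes for replicate 1, which lay near the KO libraries of T26 and whose label was not tested, 4710 for replicate 2 and 4391 for replicate 3. Two-sided tests of the same kind called ENSRNOG00000043866, at -1.40 on the log2 scale, and ENSRNOG00000030478, at -2.53. For both, WT replicate 3 was above the WT libraries of the earlier times, as were WT replicates 1 and 2 at T34, a time that is not in this test. Without WT replicate 3 at T30 the values were 0.0025 and -0.06 and were not called. The causes were not tested.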

How the results depend on the processing

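For 18 results, 291 values were computed under alternatives. In 254 a fold change kept its sign and its side of the threshold, or a count stayed within 1.5 times. A single KO library at T30, and the joint removal of KO replicate 1 and WT replicate 3 in the test against the earlier times, were chosen after the data were seen, as were the separate KO and WT shifts. At T30 the 4 named genes had 83 such fold changes, which all kept sign and call. For their difference from the earlier times, 76 of 79 values kept the sign and 61 the call. DESeq2 gave no adjusted p for ENSRNOG00000030478 in 2 tests. With a 1.5-fold minimum change, 4463 genes were called at T30, since larger effects are then asked for. With library totals that include the abundant pair, 1305 genes were at least 2-fold higher and 2069 lower at T30. Totals that leave out the pair gave 2106 and 1013. Against all 6 other times in 42 libraries, the difference was called for 1984 genes, the KO shift for 2234 and the WT shift for 602. Against T26 only the counts were 2028, 3496 and 0. With KO replicate 1 alone they were 1864 for the difference and 972 for KO, against 4710 and 4805 with replicate 2 alone and 4391 and 4494 with replicate 3 alone. Leaving out single T30 libraries gave 9298 to 10554 called genes at T30, 3854 to 5791 for the difference from the earlier times, 3925 to 6431 for the KO shift and 1175 to 3125 for the WT shift. Against the earlier times, ENSRNOG00000043866 ranged from -1.79 to 0.0025. The latter was the value without WT replicate 3, where no difference was left (adjusted p 0.994 by edgeR). ENSRNOG00000043866 was also not called against all 6 other times (-1.06, adjusted p 0.135 by edgeR). With KO replicate 1 alone ENSRNOG00000001571 reversed to -0.067 and ENSRNOG00000022178 to -0.56, neither of them called with or without the change. For genes apart in KO replicate 1, 1.5-fold gave 102 above and 96 below and 3-fold gave 3 and 3, and for WT replicate 3, 1.5-fold gave 15 above and 3-fold 1 below, where a larger fold asks for more by construction.

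Replicates of KO and WT share numbers in the labels, but the deviations of same-numbered libraries from their group means correlated at 0.02, -0.02 and -0.04 over genes at T30, so the numbers were not taken to pair them. The highest correlation, of WT replicate 2 with KO replicate 3, was only 0.07. With the replicate block, 9957 genes were called at T30 and 4827 for the difference from the earlier times, and that difference was not called for ENSRNOG00000043866 (-0.83, adjusted p 0.0764 by edgeR) or ENSRNOG00000030478 (-1.29, adjusted p 0.119). At the depth of these libraries, counting limits the genes under 1 CPM most, where the median SD of log2 CPM between replicates was 0.33 in WT and 0.38 in KO. Alternatives for the gene lists were not run.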

Other observations

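Some genes were near the floor in 1 genotype at T30 and present in the other. In WT, 12 genes had a mean under 0.1 CPM and were at 1.05 to 2.97 CPM in KO. In KO, 5 genes had a mean under 0.1 CPM and were at 1.06 to 11.4 CPM in WT. All 12 and all 5 were called by edgeR, where 73.5% of all genes tested were, and they were picked for their difference in the same libraries. The low group held at most 11 counts per library in the first set and 8 in the second, so no fold is given.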
